A study of Drosophila melanogaster with 8 samples.

Results

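The Hand positive cells of the late Drosophila melanogaster embryo numbered 262 of 27932 cells kept and of 38531 distinct cells in all, which was 0.938% of the kept cells (exact 95% interval 0.828 to 1.06%). A cell was counted as Hand positive when it held at least 2 UMIs (unique molecular identifiers, each a tag for 1 captured transcript) of Hand and none of the neuronal gene elav or the glial gene repo. Kept cells had at least 200 genes detected and under 20% of their UMIs in mitochondrial genes. Of the Hand positive cells, 47 also held at least 3 UMIs of Mhc, the muscle myosin heavy chain, and are described apart from the other 215. Hand, elav, repo and Mhc chose the cells, so their own values are given only as a description.

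The libraries came from pooled whole embryos of stage 17 (aged 17 to 18.5 h), dissociated by douncing and filtered before 10x Genomics 3' capture. There were 8 libraries of 1 condition, labelled as 4 samples with 2 lanes each, and no comparison group. All embryos carried UAS myr::GFP with alrm-gal4, a driver for astrocytes, and the nuclear reporter UAS-redstinger::NLS with the driver 25H07-gal4. Neither reporter selected cells here, since the whole embryo was dissociated. The numbers on the cell barcodes matched no library label, so the table was treated as 1 pooled sample and no p-value was computed. Barcodes with numbers 1 and 5, 2 and 6, 3 and 7, and 4 and 8 were shared at 99.6% or more, against at most 0.422% for any other combination, and each such library pair was read as 2 sequencing runs of the same cells and summed.

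Hand is a basic helix-loop-helix transcription factor. It is active in the dorsal vessel, the fly heart, which is a tube of contractile cardioblasts flanked by pericardial cells, in the hematopoietic lymph gland beside it, in other nephrocytes such as the garland cells, and in the visceral mesoderm that forms the gut musculature. Cardioblasts depend on the homeobox factor tin and on T-box factors, nephrocytes filter the hemolymph through a slit diaphragm and take up protein through a cubilin and amnionless receptor complex, and visceral muscle precursors depend on the forkhead factor bin and on HLH54F or org-1.

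The Hand positive cells were spread over the 4 library pairs with 63, 59, 70 and 70 cells, or 0.862 to 1.02% of the kept cells of each pair. Those with Mhc numbered 16, 12, 9 and 10 and those without Mhc 47, 47, 61 and 60. Hand positive cells held a median of 3004.5 UMIs (331 to 94764), against 4076 in all other kept cells. The cells with Mhc were deeper, with a median of 7710 UMIs, against 2800 in those without Mhc. Composition of the whole dissociate differed between pairs: neurons (cells with at least 2 UMIs each of nSyb and Syt1) were 4.36% of the kept cells in pair 1, against 21.4 to 30.3% in pairs 2 to 4.

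At the threshold, 56 Hand positive cells held exactly 2 Hand UMIs, and in 33 of these the UMIs were 1 in each run, so that 1 molecule read in both runs would give the same value. A further 174 kept cells without elav and repo held exactly 1 Hand UMI and were left out. The median Hand positive cell held 6 Hand UMIs, 81 cells held 10 or more, and the highest held 84. Exclusion by elav and repo removed more cells than it kept: of 663 kept cells with at least 2 Hand UMIs, 401 held elav or repo, 241 of them with at least 3 UMIs of elav, and the 401 had a median of 18290 UMIs. Of the 401, 184 held at least 3 UMIs of Mhc, beside the 47 such cells that were kept. As a background level, a UMI of Hand was found in 3.43% of neurons (median 5302 UMIs) and 1.23% of plasmatocytes (cells with at least 3 UMIs of Sr-CI, median 4826 UMIs), and at least 2 UMIs in 2.02% and 0.247% of those cells.

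Levels are given as CPM, the UMIs of a gene over the summed cells of a set scaled to a total of 1000000, and a difference as the log2 ratio of 2 such levels with 0.5 UMI added. Intervals of levels and ratios are exact, at 95%, computed on the mean of the 2 runs, and cover counting error only, not the spread between embryos. A gene is called higher or lower where the levels, with 0.5 UMI added, differed at least 2-fold. It also needed at least 20 UMIs over both sets. Where the first set is far smaller, as Hand positive cells against all other kept cells, a gene with 0 UMIs in it can be called higher. With no UMI added, among genes with a UMI in both sets, 1276 in place of 1834 genes were higher in that comparison. Beside the first count of listed genes in each comparison stands the share of all tested genes called in the same direction. Against all other kept cells, the share called higher includes such genes with 0 UMIs.

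Against all other kept cells, the genes that led the Hand positive cells were of the nephrocyte receptor complex and of a tin and prc group. Of the 13 nephrocyte list genes, 11 were higher and 0 lower, with a median log2 ratio of 3.17, beside 0.03 over all 12293 genes tested, of which 14.9% were higher and 23.4% lower. The nephrocyte list joins genes of different cells: prc, eve, Him and mgl were in 91, 12, 13 and 19 of the 92 cells with tin and in 4, 0, 0 and 1 of the 32 with Cubn, Amnionless or CG42255. Of the 15 cardioblast list genes 4 were higher and 6 lower (median -0.48), and of the 10 visceral mesoderm genes 4 and 2 (median 0.56). Neither median kept its sign over pairs 1 to 4. The cardioblast medians were -0.55, -1.22, -0.22 and 0.50, and those of the visceral mesoderm 1.11, -0.08, -0.20 and 0.59. None of the 9 lymph gland genes was higher and 1, Antp, was lower. The contractile list had 14 higher and 3 lower of 25 tested genes (median 1.10), but the 3, Act79B, TpnC41C and TpnC4, had at most 1 UMI in Hand positive cells and levels in other cells under the 3.38 CPM that 3 counts in the Hand positive cells amount to, so a difference was not detectable. These counts describe cells that were chosen by a measured value and by the absence of elav, and the neuron list, with 10 of 10 genes lower, moved with that choice.

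Amnionless and Cubn, which encode the membrane anchor and the ligand-binding part of the endocytic receptor of nephrocytes, were with CG42255 the 3 genes of the steepest ratios among those that moved the same way in all 4 pairs. Amnionless reached 1649.9, 578, 999 and 62.0 CPM in the Hand positive cells of pairs 1 to 4, against 1.65 to 12.4 CPM in the other kept cells of the same pairs. Its log2 ratio was 7.39 (95% interval 7.23 to 7.55), from 30 Hand positive cells and 149 of the 27670 others. The Hand positive cells were above the others in each pair, but pair 4, with 3 of the cells, stood far below pairs 1 to 3. Cubn had 999 CPM in Hand positive and 7.38 CPM in other cells (log2 ratio 7.08, 32 cells). CG42255, listed as Cubn2 in the current gene table and thus a second cubilin-type gene, had 623 and 3.91 CPM (log2 ratio 7.32). The Kruppel-like factor Klf15, known from nephrocyte differentiation, had 14.7 CPM in Hand positive and 0.0611 CPM in other cells, from 12 cells, none of them in pair 4.

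Slit diaphragm genes were part of the same pattern. The nephrin-type adhesion gene sns had 141 CPM in Hand positive and 21.3 CPM in other cells (log2 ratio 2.73), its partner kirre 528 and 80.0 CPM (2.72), and the junctional scaffold gene pyd 604 and 172 CPM (1.82). For sns, kirre and Cubn alike, pair 1 was highest and pair 4 lowest among the Hand positive cells. The nephrocyte factor zfh1 was broad, with 159 Hand positive and 13171 other cells and a log2 ratio of 0.53, which was not a 2-fold difference. Further genes that the naming rule gave from this comparison, CG13794, CG43187, TrxT and CG4325, had log2 ratios of 6.75, 6.64, 6.19 and 4.44 and also were lowest in pair 4.

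The heart gene tin had 97.4, 92.4, 216 and 201 CPM in the Hand positive cells of pairs 1 to 4, against 2.41 to 4.10 CPM in the others. The log2 ratio was 5.47 (95% interval 5.17 to 5.76), and 92 of 262 Hand positive cells (35.1%) held a UMI, against 0.912% of neurons and 0.0925% of plasmatocytes. Rh50, a Rhesus-type transporter gene, had 662 CPM in Hand positive and 8.70 CPM in other cells (log2 ratio 6.25, 84 cells), and the uncharacterised CG33946 260.4 and 2.26 CPM (6.85, 69 cells). Both were lowest in pair 1, where CG33946 had 29.8 CPM, and highest in pair 3. prc, which encodes pericardin, the collagen-like matrix protein that sheathes the heart, was the most widespread, with 3265 CPM in Hand positive and 333 CPM in other cells (log2 ratio 3.29) and a UMI in 182 of the 262 cells. CG12105 and Spn77Bc, a serpin gene, completed the set given by the rule, with log2 ratios of 4.59 and 4.42.

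Among the other cardioblast factors, the LIM-homeobox gene tup (222 CPM in Hand positive, 30.9 CPM in other cells, log2 ratio 2.85), the sulfonylurea receptor gene Sur (2.21) and the netrin receptor gene unc-5 (1.52) were higher. This list too joins genes of different cells. tup, unc-5 and Sur were in 62, 61 and 9 of the 92 cells with tin and in 1, 2 and 20 of the 25 with bin, org-1 or HLH54F. The T-box genes H15 and mid were lower, with 3 and 4 Hand positive cells, and so were the nuclear receptor gene svp, the receptor gene Tl and the guidance ligand gene sli. The T-box gene Doc2 had 0 UMIs in Hand positive and 1.15 CPM in other cells, which is again under that floor, and entered the count of 6 only through the added 0.5 UMI. H15 and mid are defining markers of cardioblasts, so the label of heart cells rests here on tin, tup and prc rather than on the T-box genes. Of the visceral mesoderm genes, the homeobox gene bap (3.83), bin (2.55), HLH54F (2.04) and org-1 (1.76) were higher. Alk, the receptor of visceral muscle founders, and its ligand gene jeb were lower, at -2.70 and -2.67, with 15 and 10 cells, and both are also expressed in the nervous system.

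**Figure D1:**
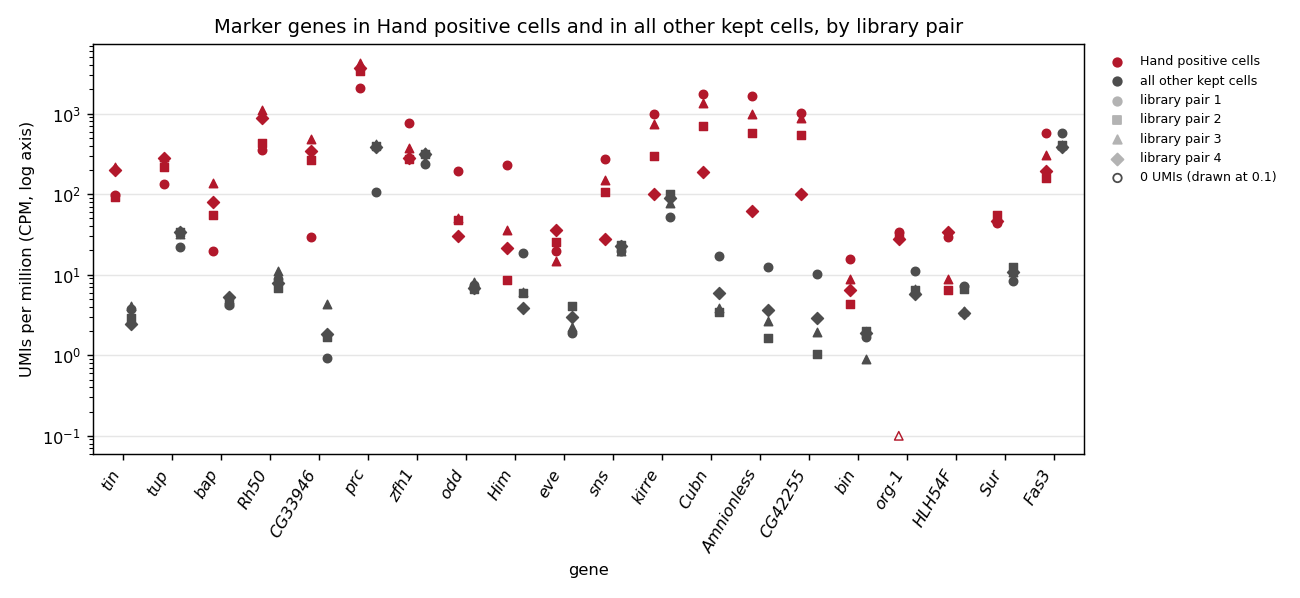
Level of 20 marker genes in CPM (log axis), with Hand positive cells in red and all other kept cells in grey, and 1 symbol for each of the 4 library pairs. Cubn, Amnionless and CG42255 stand lowest in pair 4 and CG33946 in pair 1, while prc lies between 2073 and 4300.4 CPM in the Hand positive cells of every pair.

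To find the genes most like Hand in which cells held them, each cell was thinned to 1000 UMIs, which left 250 Hand positive and 25641 other cells, and genes were ranked by the difference in the share of cells with a UMI. prc came first, in 62.4% of Hand positive and 9.77% of other cells. Next stood the basement membrane linker gene Ndg, in 43.6% of Hand positive and 3.86% of other cells, and loh, which encodes a matrix protein of the heart, in 55.2% of Hand positive and 16.5% of other cells. The transcription factor gene apt was found in 39.2% of Hand positive and 5.53% of other cells, the cell cycle phosphatase gene stg in 51.2% of Hand positive and 17.6% of other cells, and the tropomyosin gene Tm2 in 39.2% of Hand positive and 7.67% of other cells. CG44325 and CG1572 filled the other places. At full depth prc was in 69.5% of Hand positive cells, 13.9% of neurons and 8.79% of plasmatocytes, so a share of up to that size can be background.

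The Hand positive cells were then grouped by single marker genes, with the overlap of each group counted. A UMI of tin was found in 92 cells, of Cubn, Amnionless or CG42255 in 32, of bin, org-1 or HLH54F in 25, and of the plasmatocyte receptor gene Sr-CI in 20. At least 1 of these was found in 161 of the 262 cells and more than 1 in 8. No cell held both tin and a gene of the cubilin complex, 1 held tin with bin, org-1 or HLH54F, 2 held the cubilin complex with bin, org-1 or HLH54F, and 5 held tin with Sr-CI. The remaining 101 cells held none of them and were shallower, with a median of 2388 UMIs. These groups were drawn up after the values had been seen and are a description of the cells, and the overlaps were not compared with chance.

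The 92 tin cells came as 15, 23, 24 and 30 from pairs 1 to 4 and had a median of 9 Hand UMIs. prc was found in 91 of them at 8768 CPM, tup in 62, unc-5 in 61, Rh50 in 60, CG33946 in 57 and the adhesion gene hbs, a relative of sns, in 53. bap, best known from the visceral mesoderm, was found in 30 tin cells, which was 30 of the 36 Hand positive cells with bap. No tin cell reached 3 UMIs of Mhc and 76 of the 92 held none, although 45 held a UMI of the myosin light chain gene Mlc2 and 69 of Tm2. Of the T-box gene H15 none of the 92 held a UMI, which allows a share of cells with a UMI of up to 3.26% and sets no limit on cells that express the gene below detection. Outside the Hand positive cells tin was found in 191 kept cells, and 95 of these held at least 2 Hand UMIs and were set aside only because of elav or repo, 9 held 1 Hand UMI and 87 none. The exclusion by elav and repo thus set aside 95 tin cells beside the 92 that were kept.

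The 32 cells with the cubilin complex came as 10, 7, 12 and 3 from pairs 1 to 4 and also had a median of 9 Hand UMIs. They were nearly uniform: Cubn was in 32, Amnionless and CG42255 in 30 each, kirre in 31 at 4372 CPM, sns in 28, pyd in 30 and zfh1 in 30. The stomatin-type gene Mec2, another slit diaphragm gene, was in 24. Mhc reached 3 UMIs in 6 of the 32 cells and was at 0 in 22. The GATA factor gene srp was in 28, the zinc finger gene odd in 19, the COE factor gene kn in 18 and the adhesion gene Fas3 in 26. None held tin or Rh50 (0 of 32 allows a share of cells with a UMI of up to 9.38%), and prc, found in 91 of the 92 tin cells, was in 4. Of the 149 other kept cells with Amnionless, 29 held at least 2 Hand UMIs with elav or repo and 115 held no Hand UMI.

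The 25 cells with bin, org-1 or HLH54F came as 8, 6, 4 and 7 from the 4 pairs, and 23 of them held Mhc at 3 UMIs or more. They held little Hand, with a median of 3 UMIs and 12 cells at exactly 2. Sur was found in 20, Fas3 in 21, the myosin light chain kinase gene Strn-Mlck in 23 and Mef2, the general muscle factor, in 18. org-1 was in 16 of them, bin in 12 and HLH54F in 11. The gut gene mex1 was found in 12 and the endodermal GATA factor gene GATAe in 8 of the same 25 cells, and the part of midgut RNA in these cells was not tested. Outside the Hand positive cells HLH54F was in 423 kept cells: 108 held at least 2 Hand UMIs and were set aside for elav or repo, 47 held 1 Hand UMI, and 268 held none, 161 of these with Mhc at 3 UMIs or more. The same exclusion set aside 102 cells with org-1 and 84 with bin, against 16 and 12 that were kept, so most kept cells with at least 2 Hand UMIs and one of these genes lay outside the 262.

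The 20 Sr-CI cells came from pairs 2, 3 and 4 (6, 5 and 9 cells) and none from pair 1. Plasmatocytes were also fewest in pair 1, at 2.33% of its kept cells, against 12.8, 16.4 and 15.3% in pairs 2 to 4. Of the 20 Sr-CI cells, 19 held peroxidasin, Pxn, a plasmatocyte matrix gene, and all 20 held the collagen gene Col4a1, at 26281 CPM. The tin cells, which share 5 cells with them, had 2765 CPM, 19.1% of it from 1 cell. They also held heart genes: prc was in 14, Rh50 in 8 and tin in 5. No doublet caller was run, and the part of doublets in these cells was not tested.

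**Figure D2:**
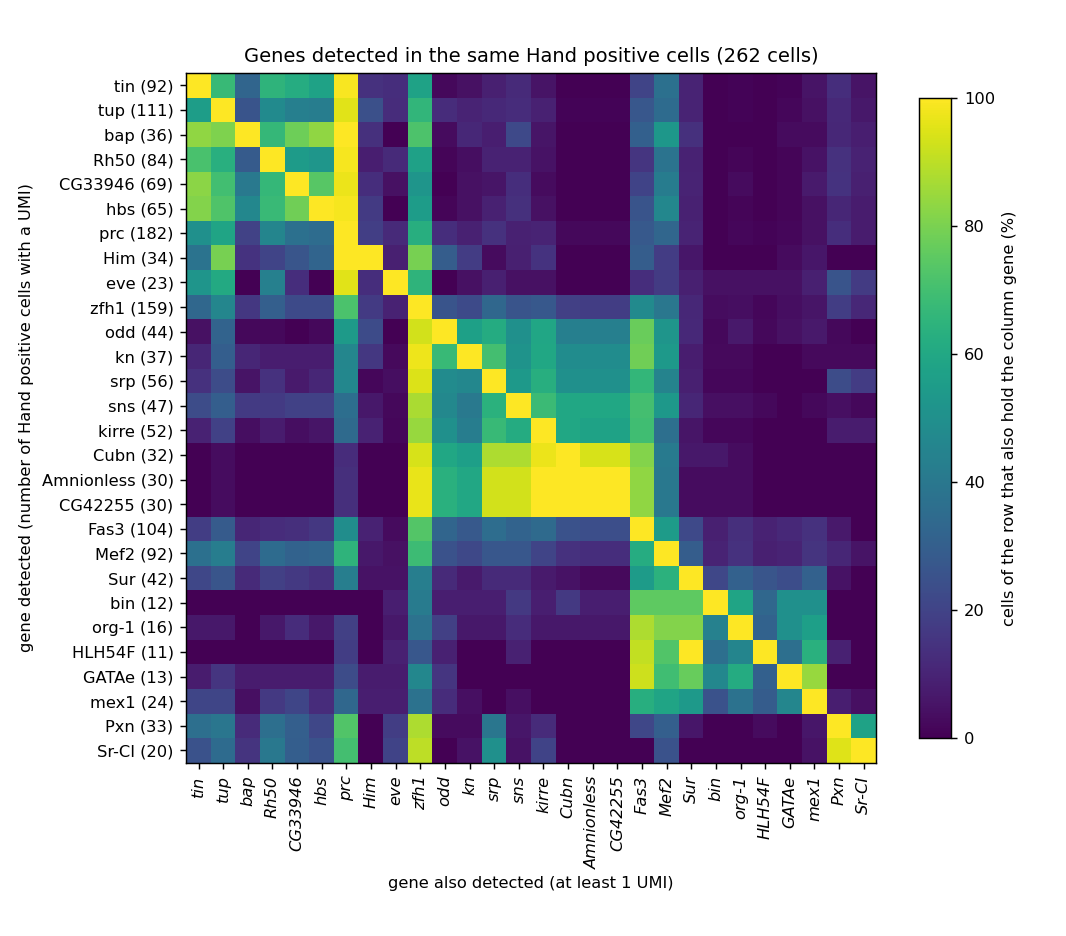
Share of the Hand positive cells with a UMI of the row gene (number of cells in brackets) that also hold a UMI of the column gene, in percent. A block with tin, tup, bap, Rh50, CG33946, hbs and prc, a block with Cubn, Amnionless, CG42255, kirre, sns and srp, and a block with bin, org-1, HLH54F and Sur are seen, with no cell shared by tin and Cubn. The blocks overlap in part: prc was in 46.4% of the cells with srp, 36.2% with sns, 34.6% with kirre and 42.9% with Sur.

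Clustering of the 262 cells without Hand, Mhc, elav and repo among the variable genes gave 9 clusters. A cluster against the rest is a description, since the same genes made it. Clusters 3, 8 and 4 together held 106 cells, none with Mhc, that came as 10, 25, 36 and 35 from pairs 1 to 4, and all 3 had tin, tup and prc. Cluster 3 (38 cells) had prc in 38 cells, tin in 27, Rh50 in 28 and hbs in 29, and the cell death gene rpr, among its leading genes, in 29. Cluster 8 (24 cells) had tin in 21, bap in 18, hbs in 22, the annexin gene AnxB10 in 23 and the Hox gene abd-A in 16. jhamt, which encodes the methyltransferase of juvenile hormone synthesis, led this cluster with 632 CPM in 9 cells.

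Cluster 4 (44 cells) had the highest prc, 15729 CPM in all 44 cells, against 9200.4 CPM in cluster 3 and 10199 CPM in cluster 8. Its leading genes included the homeobox genes eve, in 15 cells, and ara, in 13, and the snail family gene esg, in 22. eve marks a subset of pericardial cells. pyd was in 41 of the 44 cells and Ndg in 41, while hbs was in none, against 29 of 38 and 22 of 24 in clusters 3 and 8. Over all Hand positive cells, none of the 23 with eve held hbs. None of the 3 clusters held Amnionless, and none was given a cell type name, because tin, tup and unc-5, with lbl in cluster 8, were their only cardioblast markers and H15 and mid were at 0 in all 3, while cluster 4 also met 5 nephrocyte markers and cluster 8 met 3 of the lymph gland list (dome, hop and Ser).

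Cluster 2 (29 cells) met the nephrocyte markers and is called nephrocyte-like: Amnionless, Cubn, CG42255 and kirre were each in all 29 cells, at 7418, 8796, 5579.9 and 4492 CPM. It was poor in matrix, with trol, the perlecan gene, at 158 CPM, against 10604 CPM in cluster 8, and Ndg in 1 of 29 cells. It also met the lymph gland list, with kn, srp and ush. Cluster 7 (23 cells, 21 with Mhc) is called visceral mesoderm-like and also met somatic muscle markers. Its leading genes were the BMP ligand gene dpp, in 9 cells at 793 CPM, the potassium channel gene sand, in 13, and the zinc finger gene disco-r, in 17. HLH54F was in 7 of the 23 and org-1 and bin in 4 each, and 14 of the 23 cells held exactly 2 Hand UMIs, so this cluster stood at the threshold of the rule.

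The other 4 clusters were mixed. Cluster 0 (25 cells) is called hemocyte-like, with Sr-CI in 20 and Pxn in 23 cells, so its leading genes go against the label of heart and visceral mesoderm. Cluster 5 (17 cells, 15 with Mhc, median 20824 UMIs) held org-1 in 10, mex1 in 14 and GATAe in 13 cells and only 122 CPM of Hand, and was left unnamed. Cluster 6 (12 cells, median 13001 UMIs) had srp in 10, zfh1 in 12 and kn in 5. It met the lymph gland list with Antp, kn and srp, 3 markers, but its leading genes, such as the hexokinase gene Hex-C in 3 cells, were of no list and Antp was in 3 of the 12 cells, and it was left unnamed by choice. Cluster 1 (50 cells, 24 of them from pair 1) had prc in 41, tup in 25, Him, a repressor of muscle differentiation, in 21 and odd in 16, together with epidermal, tracheal and neuronal genes, and was left unnamed. With 10 in place of 20 principal components, clusters 3, 4 and 8 fell mostly into 1 cluster and 5 and 6 into another, and at resolution 0.5 clusters 3 and 8 fell into 1, so the divisions within these groups, and between clusters 3 and 8 in particular, depend on the setting.

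Hox genes, which mark position along the body axis and in the dorsal vessel divide the aorta from the heart proper, were compared with the rest of the embryo as well. None of 8 was higher and 4 were lower, beside 14.9% higher and 23.4% lower of all genes tested, and the 4 were the head and anterior genes pb, Dfd and Scr with 0 to 3 UMIs and Antp at -1.16. Neurons, which the rule left out, also express Hox genes. Ubx had 132 CPM in Hand positive and 149.8 CPM in other cells (log2 ratio -0.18, 95% interval -0.46 to 0.08), and abd-A 79.5 and 86.6 CPM (-0.12, 95% interval -0.48 to 0.21). Neither was called. Within the Hand positive cells Ubx was found in 56, abd-A in 57 and both in 17. The tin cells held Ubx in 27 and abd-A in 28 of 92, whereas none of the 29 cells of cluster 2 held a UMI of Antp, Ubx or abd-A, which allows a share of cells with a UMI of up to 10.3% for each. In clusters 3 and 8, Ubx was in 13 of 38 and 8 of 24 and abd-A in 8 of 38 and 16 of 24 cells. All 12 cells with jhamt held tin.

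The Hand positive cells with Mhc carried the contractile apparatus and lacked the tin group. Of 22 contractile genes tested, 20 were higher in the cells with Mhc than in those without and 1 lower (median log2 ratio 3.73, -0.19 over all 5712 genes tested, 19.7% of which were higher and 23.8% lower). Mlc2 had 4674, 5236, 6553 and 3539 CPM in the cells with Mhc of pairs 1 to 4, against 104 to 387 CPM in those without, and a log2 ratio of 4.28. For Mlc2 every pair with Mhc lay above every pair without. How many of all tested genes did the same was not counted. The actin gene Act57B, the troponin C gene TpnC47D and the paramyosin gene Prm had log2 ratios of 3.71, 5.26 and 5.22. A further troponin C gene, TpnC25D, was in 18 of 47 cells with Mhc and 0 of 215 without, which made it at least 35.5-fold higher. The tropomyosin genes Tm1 and Tm2 were less divided (1.34 and 1.24), the nuclear anchoring gene Msp300 was not called (0.50), and the actin-capping gene tmod was the 1 that was lower (-1.57). Since Mhc chose the cells and depth differed between them, the counts are a description.

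On the other side, tin was in 0 of 47 cells with Mhc and 92 of 215 without, at least 31.0-fold lower, and hbs in 0 and 65 cells, at least 63.9-fold lower. Him was likewise at 0 in the cells with Mhc, at least 17.0-fold lower. Rh50 had 2.70 CPM in 1 cell with Mhc, against 1135 CPM in 83 cells without, a log2 ratio of -8.40 (95% interval -14.02 to -6.23). unc-5 and tup had log2 ratios of -5.15 and -4.46, and bap, with 1 UMI with Mhc, of -5.84 (95% interval -16.43 to -3.14). prc had 0, 1302, 334 and 175 CPM in the cells with Mhc of pairs 1 to 4, against 3784 to 6923 CPM in those without (-3.63), with 9 and 173 cells. It was lower with Mhc in each pair, and 1 cell gave 63.1% of its UMIs in the cells with Mhc. Of the nephrocyte list 0 genes were higher and 5 of 13 lower, and of the cardioblast list 2 and 4 of 8, beside 19.7% higher and 23.8% lower of all genes tested.

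Visceral mesoderm genes divided between the cells. HLH54F was found in 11 of 47 cells with Mhc and 0 of 215 without, at least 8.59-fold higher. org-1 was in 15 and 1 cells (log2 ratio 5.34, 95% interval 2.54 to 15.95), and bin in 11 and 1 cells, with too few UMIs to be tested. Sur (2.49) and the EGF ligand gene vn (1.59) were higher with Mhc, and Fas3, which also marks the nephrocyte-like cells, was not called (0.10, 38 and 66 cells). Among genes of excitation and calcium, Strn-Mlck (4.37), the calcium channel gene Ca-alpha1T (3.35) and the ryanodine receptor gene RyR (2.62) were higher, and the potassium channel gene Sh was lower (-2.37). The contractile list keeps the same median with TpnC25D at its bound.

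Basement membrane genes were lower with Mhc: 9 of 13 were lower and none higher (median -1.63), beside 23.8% lower and 19.7% higher of all genes tested. trol had 431, 1126, 649.6 and 888 CPM in the cells with Mhc of the 4 pairs, against 1977 to 5426 CPM in those without (-2.27). Col4a1 (-2.24), vkg, its partner collagen (-2.33), and SPARC, a collagen-binding protein gene (-2.25), moved alike. These 3 are also strong in plasmatocytes and fat body, and all 20 Sr-CI cells lay among the cells without Mhc, so their part in this difference was not tested. Compared with all other kept cells, Hand positive cells as a whole were higher for Ndg (2.56), the integrin genes scb (2.16) and mew (264 CPM in Hand positive, 115 CPM in other cells) and trol (1.30), and lower for vkg (-1.34), Col4a1 (-1.27) and SPARC (-1.14). abd-A, Antp and Abd-B were lower with Mhc (-2.55, -2.54 and -1.90), and Ubx was not called (-0.60).

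Markers of the midgut moved with Mhc. The 9 midgut genes summed to 1401 CPM in the cells with Mhc (248 to 2632 by pair), against 25.2 CPM in those without (16.3 to 39.9), and were seen in 20 of 47 and 18 of 215 cells. All 5 that could be tested were higher, 3 and 4 of the 9 were at 0 with and without Mhc, and 1 cell gave 40.9% of the UMIs with Mhc. Without the cells that held mex1, GATAe, Jon65Aiii, Jon65Aiv or Try29F, 583 in place of 1125 genes were higher with Mhc, and this alternative was chosen after the data had been seen. With fewer cells, fewer genes can reach the minimum of 20 UMIs. How many were tested in that setting was not counted, so the fall in the count is not a share of the difference. Of the genes the naming rule gave, fa2h, CG3987, CG12974, CG30339 and Vago were at 0 without Mhc and at least 17.2, 16.9, 16.9, 13.0 and 8.82 times higher. CG15829, named Acbp6 in the current gene table, Oatp33Eb and CG34288 had log2 ratios of 7.99 (95% interval 5.32 to 18.57), 6.61 (95% interval 3.91 to 17.20) and 6.58, CG15829 and Oatp33Eb with 1 UMI each without Mhc. At 0 with Mhc were CG14752, CG34355, lectin-28C and rdo, at least 54.1, 33.4, 23.3 and 19.0 times lower, and CG33946 and SP1029 had log2 ratios of -7.79 (95% interval -18.37 to -5.13) and -7.66 (95% interval -18.24 to -5.01) from 1 UMI each with Mhc.

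**Figure D3:**
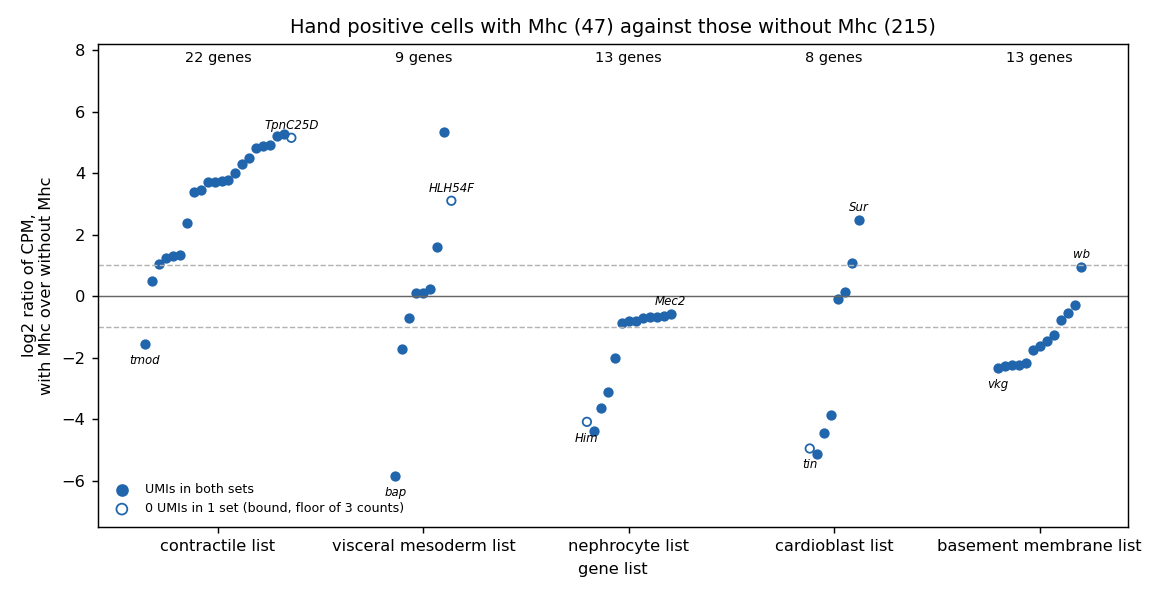
Log2 ratio of CPM, Hand positive cells with Mhc (47) over those without (215), for each tested gene of 5 lists, with open points for genes at 0 UMIs in 1 set, drawn at their bound from the floor of 3 counts. The contractile genes lie above 0 except tmod at -1.57, the cardioblast list runs down to unc-5 at -5.15 and tin at its bound, and the basement membrane list lies below 1 throughout.

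The Hand positive cells with Mhc were also set against the 642 cells with at least 3 UMIs of Mhc that held no Hand, elav or repo, 360 of which came from pair 1. The Hand positive cells with Mhc were deeper, with a median of 7710 UMIs, against 3353.5 in the Hand negative ones. Counts of cells with a UMI, here and below, are thus not at equal depth. Of 23 contractile genes tested, 2 were higher and 4 lower, beside 17.2% higher and 16.7% lower of all 7091 genes tested, and 17 were not called. Their median log2 ratio was -0.54 (-0.59, -0.34, -0.06 and -1.22 in pairs 1 to 4), beside 0.21 over all genes. The Z-disc gene Zasp52 had 202 CPM in Hand positive and 76.9 CPM in Hand negative cells (1.40, 95% interval 0.97 to 1.81). TpnC73F (-2.32), the titin-type gene sls (-1.57) and the myofilin gene Mf (-1.55) were lower. TpnC41C, a troponin C gene, was detected in 0 of 47 Hand positive cells, which allows a share of cells with a UMI of up to 6.38%, and in 59 of 642 Hand negative cells. TpnC25D was higher at 1.85, but reversed to -0.56 without the cells holding the 5 midgut genes named above.

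The visceral mesoderm list had 4 of 8 tested genes higher and 1 lower (median 0.78, and 0.83, -0.27, 0.01 and 0.89 in pairs 1 to 4). Its summed level went the other way, with 654 CPM in Hand positive and 1350 CPM in Hand negative cells. bin (1.70, 95% interval 0.13 to 3.16), org-1 (1.25, 95% interval 0.42 to 2.02), and vn (1.22) were higher in the Hand positive cells with Mhc, Alk was called higher (7 of 47 and 16 of 642 cells) with an interval of the ratio that includes 0, and the tubulin gene betaTub60D was lower (-3.91). Of the cardioblast list, Sur was higher (1.94). HLH54F had 49.9 CPM in Hand positive and 50.9 CPM in Hand negative cells (-0.01, 95% interval -0.84 to 0.71), in 11 of 47 and 67 of 642 cells. Ca-alpha1T was higher (1.91), and the calcium pump gene SERCA (-1.05), RyR (-1.44) and Sh (-2.96) were lower. Mef2 was not called (-0.79). Of the nephrocyte list 6 of 11 genes were higher and 2 lower, beside 17.2% and 16.7% of all genes tested. The median of this list was 1.40, 1.56 and 1.59 in pairs 1 to 3 but -1.09 in pair 4. odd, at 3.65, was among the highest genes of the comparison, in 10 of 47 and 7 of 642 cells. Of the 47 Hand positive cells with Mhc, 6 held a gene of the cubilin complex, and 5 of these 6 also held odd. The part of these 6 cells in the nephrocyte list difference was not tested.

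The further genes that the rule gave from this comparison were lncRNA:alphagamma-element, Obp18a, CG6041, lap, fabp, scramb1 and Swim, with log2 ratios between 3.51 for Swim and 4.41 for lncRNA:alphagamma-element. fabp, a fatty acid binding protein gene, was the most abundant, with 2972 CPM in Hand positive and 214 CPM in Hand negative cells, and 1 cell held 49.9% of its UMIs in the Hand positive cells. On the lower side stood the cuticle protein genes Cpr64Ad (-8.28) and Ccp84Ae (0 UMIs in Hand positive cells, at least 23.2-fold lower), with CG13047, CG12519 and CG14752 also at 0 and CG14095, CG13679 and CG13068 at -8.28 (95% interval -12.30 to -6.40), -8.27 (95% interval -13.89 to -6.11) and -8.10 (95% interval -18.67 to -5.45) from 1 to 3 UMIs in the Hand positive cells. Epidermal markers moved alongside: they summed to 149.7 CPM in the Hand positive cells with Mhc (13.5 to 439 by pair, 3 of 8 genes at 0, 12 of 47 cells), against 429 CPM in the Hand negative ones (105 to 908, 0 of 8 at 0, 119 of 642 cells), and their part in this difference was not tested. The midgut genes were 1401 and 406 CPM in the same sets.

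Some genes were uneven among the library pairs. odd had 193, 47.3, 50.4 and 29.9 CPM and Him 231, 8.59, 35.6 and 21.4 CPM in the Hand positive cells of pairs 1 to 4, so pair 1 stood apart for both, and kn did so with 225 CPM, against 29.9 to 51.6 CPM in the others. In cells, odd was found in 25, 7, 8 and 4 and Him in 21, 4, 5 and 4 of the Hand positive cells of pairs 1 to 4. Rh50 ran the other way, with 7, 19, 25 and 33 cells. Fewer cells of a type and less RNA per cell cannot be told apart in such sums, and the difference between pairs was not tested.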

How the data were processed

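Single-cell RNA was measured in 8 libraries of whole stage 17 embryos. The authors deposited 1 combined table of UMI counts per gene and cell, not normalized. The submitters' processing notes name Cell Ranger 3.1.0 and the genome build BDGP6. The 2 runs of each cell barcode were summed, so a molecule can be counted once in each run: 57.0% of all values of 2 UMIs were 1 in each run, against 50% if UMIs fell at random. For that reason exact Poisson and conditional binomial intervals (95%) and the floor of 3 counts for levels used the mean of the 2 runs. Clopper-Pearson intervals (95%) of shares used numbers of cells. The intervals cover counting error only. Hand positive cells held 1774105 of the 230848097 UMIs of kept cells.

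Cells were kept at 200 or more genes and under 20% mitochondrial UMIs. UMIs were summed over the cells of a set, and genes with at least 20 UMIs over both sets were compared after adding 0.5 UMI. For shares, cells were also thinned to 1000 UMIs. Clusters were made with scanpy 1.11.5 and igraph 0.11.9 (counts scaled to 10000, log, 2000 variable genes, 20 components, 15 neighbours, resolution 0.8). A cluster could be named where at least 3 markers of a list were 2-fold higher than in the other Hand positive cells, and, as a condition added later, in at least 10% of its cells. Its 10 leading genes also could not hold more markers of another list. Cluster 3 met this rule for the cardioblast list and was left unnamed by choice. Cluster 7 met it for the visceral mesoderm and somatic muscle lists, with 0 markers of either among its 10 leading genes, and was named by choice. No doublets were removed. Calculations used Python 3.11.15, numpy 2.4.6, scipy 1.17.1 and pandas 2.3.3, and were tested on simulated data. No column of the table was left out.

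Genes were named from the lists, and beyond them as the 12, 10 or 8 largest log2 ratios per comparison and direction, for the comparison with all other cells, with and without Mhc, and with Hand negative Mhc cells, among genes with at least 30 UMIs and 1 direction in all 4 pairs, as the 6 leading genes of a cluster, and as the 8 genes most like Hand in thinned shares. The members and all lists were chosen with earlier results of these data known. Alternatives changed the Hand and Mhc limits, the mitochondrial and gene limits, the UMI minimum, the added UMI, the weight of library pairs and of deep cells, and left out each library pair.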

Additional observations from a re-analysis of the deposited data

Results flagged for a closer look

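Of 42 values compared over the 4 library pairs, 6 had 1 pair far from the other 3, where chance gives about 1 in 20. The guidance ligand gene sli was low in the Hand positive cells of pair 2, with 23.6 CPM against 51.7 to 56.3 CPM in the other pairs. In pair 1, odd reached 193 CPM against 29.9 to 50.4, Him 231 CPM against 8.59 to 35.6, kn 225 CPM against 29.9 to 51.6, and ush, a cofactor of GATA factors, 63.6 CPM against 19.3 to 26.7. The Hox gene Ubx was high in pair 3, with 228 CPM against 105 to 118 CPM in the other pairs. All are levels over the Hand positive cells of a pair, and no cause was tested.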

How the results depend on the processing

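The number of Hand positive cells was 436 with Hand at 1 UMI or more and 663 with no limit on elav and repo, in place of 262, and stayed between 192 and 203 when each library pair was left out in turn. Of them, 77 in place of 47 had Mhc at 1 UMI or more, and 26 had Mhc with Hand at 3 UMIs or more, 30 with at least 2 Hand UMIs in 1 run and 24 after thinning, while leaving out each pair gave 31 to 38, 31 without pair 1. Genes higher in Hand positive than in other cells numbered 3335 with a minimum of 5 UMIs and 2961 by the mean over library pairs, in place of 1834. They numbered 1276 with no UMI added and 1759 to 1915 without each pair. For the mean over library pairs, 0.5 UMI was added within each pair, where it weighs more. The numbers of genes tested under the alternatives, here and below, were not counted, so these counts are no shares. Genes higher with than without Mhc numbered 730 with a minimum of 50 UMIs and 583 without the cells holding a UMI of mex1, GATAe, Jon65Aiii, Jon65Aiv or Try29F, in place of 1125, and 949 to 1137 without each pair. Genes higher in Hand positive than in Hand negative Mhc cells numbered 881 to 1365 without each pair, in place of 1218. Clusters numbered 7 to 10. The median of the midgut list against other cells, 1.35, was -0.36 without the 10% of cells with the most UMIs. It was -0.78 without the cells holding a midgut UMI. That setting takes mex1, GATAe, Jon65Aiii, Jon65Aiv and Try29F out of the list, so its median covers other genes and cannot be set against 1.35. TpnC25D, 1.85 against Hand negative Mhc cells, was -0.56 without the cells holding a midgut UMI. Among the list medians and named genes past a 2-fold difference, these were the only directions that turned, and smaller values were not checked for a turn. The cause was not tested, and the alternatives without midgut UMIs and with each cell weighted equally were chosen after seeing the data. Of 13 list medians past a 2-fold difference, 9 fell below it in 19 of 128 alternative values, and of 47 such named genes, 8 did so in 14 of 470. Within library pairs, the mean of the log2 ratios gave 1117 genes higher with than without Mhc and 1023 higher in Hand positive than in Hand negative Mhc cells, beside the 2961 above. No test was made of these, since the pairs match no labelled sample.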
